A study of Anser cygnoides with 18 samples.

Results

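Abdominal adipose and subcutaneous adipose of the same 3 high-intake geese were compared. These 6 libraries are all of the adipose libraries of the high-intake group and 6 of the 18 libraries of the series, and they are defined by tissue and feeding group. The geese were males of the Tianfu breed, a hybrid of A. anser and A. cygnoides, 126 days old when the trial of 19 days began and 145 days old at slaughter. Both feeding groups received the same diet of 14.29 MJ/kg metabolizable energy, in which crude protein made up 8.09% and methionine 0.14%, and free water. The high-intake geese were force-fed meals of 130 g that grew by 5 g each day, 2 per day on days 1 to 3, 3 on days 4 to 6, 4 on days 7 to 17 and 3 on day 18. The control geese ate freely, and feed was withdrawn from all birds the night before slaughter. Goose numbers T1, T2 and T3 mark the high-intake birds and C1, C2 and C3 the controls, and each bird gave both depots, so the depots were compared within a bird.

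Abdominal adipose lies inside the body cavity, around the gizzard and gut, whereas subcutaneous adipose lies under the skin. In birds the liver makes most of the fatty acids, and adipose tissue mainly takes them up from lipoproteins and stores them as triacylglycerol. In mammals, fat depots are known to keep an expression pattern of developmental transcription factors that reflects where in the embryo their precursor cells arose, with HOX genes as the best known example, and depots differ further in their vessels, connective tissue and mesothelial cover. No sequence is printed because none of the reference tables used here holds one for this goose annotation.

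Expression is given as FPKM, the number of sequenced fragments of a transcript scaled by its length and by the size of the library, and values follow the order of geese T1, T2 and T3. A difference is abdominal minus subcutaneous on the log2(FPKM + 1) scale, the mean of 3 within-bird differences. This scale understates the change of genes near or below 1 FPKM. The value after ± is the moderated standard error of limma, which borrows the spread from all genes. P-values come from limma with the bird as a block, adjusted over all genes tested by the Benjamini-Hochberg method. The read depth of each library is unknown, since the tables hold no counts. An exact permutation test of 3 pairs cannot give a p below 0.25, so the model, which borrows the spread from all genes, carries the tests.

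Both tissues carried the transcripts of adipocytes. PLIN1, the coat protein of the fat droplet, was at 919 to 1140 FPKM in abdominal and 995 to 1330.3 FPKM in subcutaneous adipose, and RBP7, a retinol-binding protein abundant in avian fat, at 2127 to 3347 and 1851 to 3154 FPKM. PPARG, the master regulator of fat cell differentiation, was at 77.3 to 91.7 and 71.6 to 83.7 FPKM. The summed FPKM of 20 adipocyte genes overlapped between depots, from 11200 to 12170 in abdominal and from 10280 to 12029 in subcutaneous adipose. These genes include TF, which was far higher in the abdominal library of T2 than in the other libraries, so the sum of T2 rests partly on it. FABP4 and CIDEC were not matched in the tables. In the 6 libraries the FPKM of all mRNAs summed to between 316387 and 394709, and 81.2 to 83.8% of mRNAs reached 0.1 FPKM.

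Across 12327 mRNAs with a mean above 0.1 FPKM, the bird accounted for a share of 0.551 of the sum of squares, the depot for 0.245 and the remainder for 0.204. Per degree of freedom the shares were 0.276 for the bird, 0.245 for the depot and 0.102 for the remainder. Genes that were higher in abdominal adipose of T1 tended to be so in the mean of the other birds (r = 0.53 across genes), and the same held for T3 (r = 0.44) and less for T2 (r = 0.23). Genes are not independent replicates, and these correlations describe how alike the birds are. The abdominal library of T2 stood apart, and many of the list counts below are also given without T2.

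Of the 12327 mRNAs, 7 passed an adjusted p of 0.05 (0.0568%), 1 higher (0.00811%) and 6 lower (0.0487%) in abdominal adipose. Without T2 the count was 243 (128 higher and 115 lower), without T1 it was 9 and without T3 57. Subtracting each library's median gave 11 calls, of which 3 were higher and 8 lower. An unadjusted p under 0.05 was reached by 1735 genes (14.1%), and 1097 of them (8.9%) were higher and 638 (5.18%) lower in abdominal adipose. That split depended on scaling, since the counts were 837 higher and 866 lower after the medians were subtracted. The shares were 4.84% higher and 2.48% lower without T1, 14.5% and 11.8% without T2, and 6.19% and 3.1% without T3. In control geese they were 6.87% and 5.1% of 13444 mRNAs. The control values below include the subcutaneous library of C2, which stands apart from the other adipose libraries. Counts of list members below are to be read against the shares of the same fit. The high-intake libraries of the 2 depots did not overlap for 1414 genes (11.5%), 882 higher (7.16%) and 532 lower (4.32%). For 145 of these (1.18%) the difference was at least 1 in size, 67 higher and 78 lower.

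The smallest adjusted p-values were those of DIAPH2 and ITGA6, which rest on values listed at 0 and are given last. The other 5 genes past the threshold were lower in abdominal adipose, among them 2 homeobox factors. EMX2, a homeobox factor of forebrain and urogenital development, was at 0.0945, 0.0844 and 0 FPKM in abdominal and 4.76, 3.16 and 2.85 FPKM in subcutaneous adipose (difference −2.09 ± 0.137, adjusted p = 0.0441). SHOX, a homeobox factor of limb skeletal growth, was at 0.0998, 0 and 0.0224 FPKM against 2.47, 2.22 and 2.82 FPKM (−1.75 ± 0.106, adjusted p = 0.0426). Both transcripts were at or near the floor of the abdominal libraries in every bird and above 2 FPKM in every subcutaneous library. Both differed alike in the control geese, by −2.18 for EMX2 and −1.72 for SHOX.

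WNT2B, a secreted WNT ligand, was at 0.495, 0.557 and 0.367 FPKM in abdominal and 3.66, 4.31 and 3.48 FPKM in subcutaneous adipose (−1.71 ± 0.104, adjusted p = 0.0426). DACT2, an intracellular modulator of WNT and TGF-beta signalling, was at 3.65, 4.06 and 2.53 FPKM against 30.6, 21 and 18.3 FPKM (−2.44 ± 0.154, adjusted p = 0.0426). The depots were well separated for both. In control geese the differences were −0.84 for WNT2B and −2.17 for DACT2. The call of WNT2B was lost in 1 of the 3 fits that leave out a bird, as was that of SHOX.

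The gene LOC106049116, annotated as protein S100-A4-like, a calcium-binding protein that marks fibroblasts in mammals, was at 9.52, 28.1 and 4.99 FPKM in abdominal and 62.5, 123 and 24.8 FPKM in subcutaneous adipose (−2.26 ± 0.139, adjusted p = 0.0426). It was lower in the abdominal depot of every bird, although the abdominal value of T2 exceeded the subcutaneous value of T3.

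For DIAPH2 and ITGA6 all libraries of 1 depot were listed at 0. DIAPH2, a formin that assembles actin filaments, was at 33.5, 32.8 and 32.1 FPKM in abdominal adipose and listed at 0 in all 3 subcutaneous libraries (adjusted p = 0.00113). ITGA6, the alpha subunit of laminin-binding integrins, was listed at 0 in all 3 abdominal libraries and at 18.3, 26 and 40.9 FPKM in subcutaneous adipose (adjusted p = 0.036). In control geese DIAPH2 was listed at 0 in the subcutaneous library of C3 but at 55.9 and 25.1 FPKM in those of C1 and C2, and ITGA6 was listed at 0 in the abdominal library of C2 but at 27.9 and 39.9 FPKM in those of C1 and C3. A value listed at 0 beside values of that size in the same tissue can be a failed estimate, so no fold is given. Without the 49 genes that had a 0 in some library and over 5 FPKM in another, 19 genes passed.

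**Figure D1:**
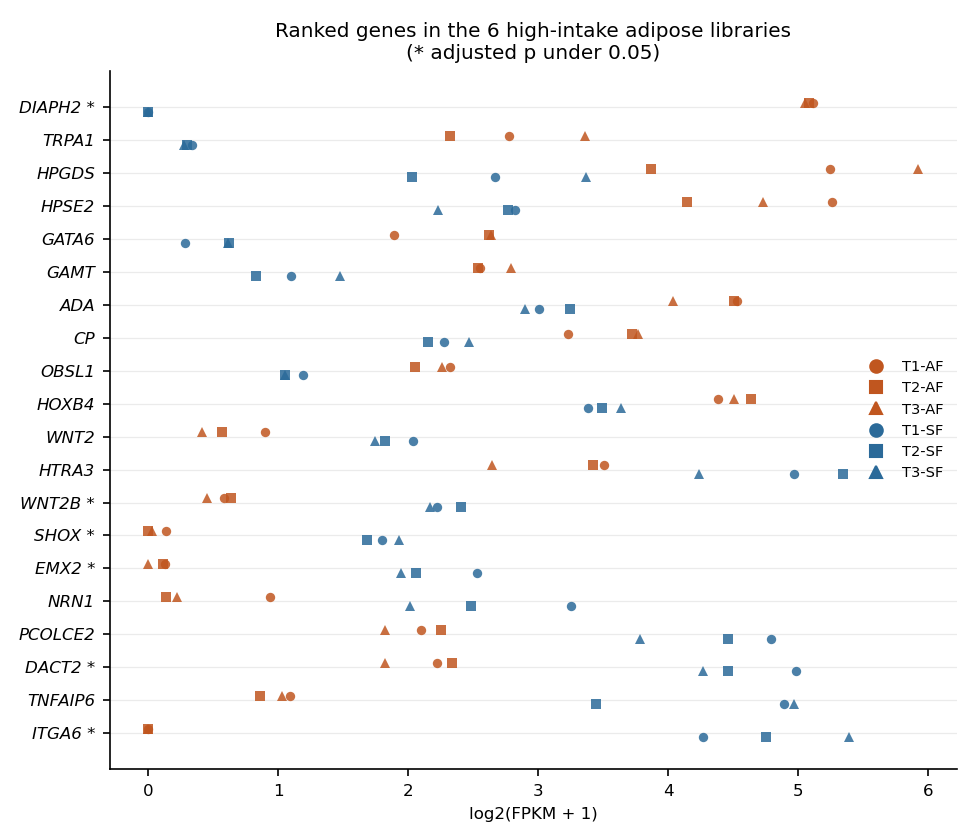
Expression of the 20 ranked genes in the 6 high-intake adipose libraries, on the log2(FPKM + 1) axis, with orange for abdominal (AF) and blue for subcutaneous (SF) and a marker shape for each goose. The depots do not overlap for any of them, which was a condition of entry for genes without a star. DIAPH2 and ITGA6 sit at 0 in all libraries of 1 depot, and the 6 starred genes passed the adjusted threshold.

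The next 5 genes in rank that were lower in abdominal adipose did not pass the adjusted threshold. TNFAIP6, a hyaluronan-binding protein, was at 1.13, 0.817 and 1.04 FPKM in abdominal and 28.6, 9.86 and 30.3 FPKM in subcutaneous adipose (−3.44 ± 0.294, adjusted p = 0.0596). PCOLCE2, an enhancer of procollagen processing, was at 3.29, 3.77 and 2.54 FPKM against 26.7, 20.9 and 12.7 FPKM (−2.28 ± 0.169, adjusted p = 0.0516). HTRA3, a secreted serine protease, was at 10.3, 9.72 and 5.27 FPKM against 30.3, 39.7 and 17.8 FPKM (−1.66 ± 0.128, adjusted p = 0.0518). Genes below the threshold entered this rank only if their depots did not overlap. The ligand WNT2 was at 0.866, 0.485 and 0.336 FPKM against 3.11, 2.54 and 2.36 FPKM (−1.24 ± 0.105, adjusted p = 0.0596). NRN1, a membrane-anchored neuritic factor, was at 0.915, 0.0981 and 0.164 FPKM against 8.51, 4.59 and 3.05 FPKM (−2.15 ± 0.153, adjusted p = 0.0516). All 5 were lower in abdominal adipose of control geese as well, with differences of −3.69 for TNFAIP6, −1.95 for PCOLCE2, −1.81 for HTRA3, −1.45 for WNT2 and −1.76 for NRN1.

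Among the genes of largest difference, chosen after their values were seen, were transcripts of high abundance. S100A1, a calcium-binding protein, was at 110, 36 and 182 FPKM in abdominal and 809, 415 and 896 FPKM in subcutaneous adipose (−2.88 ± 0.25, adjusted p = 0.0596). IGFBP2, a secreted carrier of insulin-like growth factors, was at 494, 38.1 and 328 FPKM against 1244, 527 and 1337 FPKM (−2.37 ± 0.479, adjusted p = 0.169). Both were drawn from genes whose depots did not overlap, and the control geese differed by −2.78 for S100A1 and −2.28 for IGFBP2.

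On the abdominal side, 9 ranked genes followed DIAPH2, none past the adjusted threshold. GATA6, a zinc finger factor of heart and gut development, was at 2.7, 5.15 and 5.21 FPKM in abdominal and 0.216, 0.537 and 0.527 FPKM in subcutaneous adipose (1.88 ± 0.134, adjusted p = 0.0516). HPSE2, a heparanase relative that binds heparan sulfate, was at 37.4, 16.7 and 25.5 FPKM against 6.08, 5.8 and 3.69 FPKM (2.11 ± 0.251, adjusted p = 0.0825). CP, the copper-carrying ferroxidase ceruloplasmin, was at 8.39, 12.2 and 12.6 FPKM against 3.84, 3.45 and 4.54 FPKM (1.27 ± 0.151, adjusted p = 0.0825). Absence of overlap between the depots was a condition for these genes to be ranked, not a finding about them.

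Enzymes of other pathways were of this kind. ADA, adenosine deaminase, was at 22.1, 21.7 and 15.4 FPKM in abdominal and 7.03, 8.49 and 6.46 FPKM in subcutaneous adipose (1.31 ± 0.119, adjusted p = 0.0604). GAMT, which makes creatine, was at 4.87, 4.8 and 5.93 FPKM against 1.14, 0.776 and 1.78 FPKM (1.49 ± 0.128, adjusted p = 0.0596). HPGDS, which makes prostaglandin D2, was at 36.9, 13.6 and 59.7 FPKM against 5.35, 3.08 and 9.31 FPKM (2.33 ± 0.181, adjusted p = 0.0518). The first 2 were similar in control geese (1.46 for ADA and 1.01 for GAMT), whereas HPGDS differed by 0.35 there. The cytoskeletal adaptor OBSL1 was at 4, 3.14 and 3.79 FPKM against 1.29, 1.07 and 1.07 FPKM (1.11 ± 0.111, adjusted p = 0.0676) and differed by 1.18 in control geese.

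TRPA1, an ion channel that senses irritants and temperature, was at 5.86, 4 and 9.29 FPKM in abdominal and 0.266, 0.228 and 0.213 FPKM in subcutaneous adipose (2.52 ± 0.222, adjusted p = 0.0604). In control geese it stayed at 0.0908 to 0.208 FPKM in abdominal and 0 to 0.116 FPKM in subcutaneous adipose. Its depot difference was larger in high-intake than in control geese by 2.37 (adjusted p = 0.000381 in a limma fit of all 12 adipose libraries), a call that was lost without goose C2 or after the medians were subtracted.

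The HOX genes, whose position in each cluster matches the body region in which they act, differed by cluster. All 8 tested genes of the HOXB cluster were higher in abdominal adipose, 7 of them in every bird, with a median difference of 0.56 (0.62 in T1, 0.52 in T2 and 0.60 in T3). Over all mRNAs 23.6% were higher in every bird, and the median difference was 0.04. The HOXA cluster had 6 genes higher and 4 lower (median 0.08), the HOXD cluster 3 higher and 1 lower (0.12), and the HOXC cluster 1 higher and 4 lower (−0.33). In control geese 6 HOXB genes were higher and 2 lower (median 0.75). Each cluster lay on a single scaffold of the goose assembly AnsCyg_PRJNA183603_v1.0, and the named HOXB genes spanned positions 249671 to 348574 of theirs. Neighbouring genes of a cluster can share transcripts.

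HOXB4 was at 19.8, 23.9 and 21.7 FPKM in abdominal and 9.44, 10.3 and 11.4 FPKM in subcutaneous adipose (1.00 ± 0.105, adjusted p = 0.0693). HOXB6 was at 20.9, 18.3 and 22 FPKM against 8.93, 9.25 and 11.1 FPKM (0.99 ± 0.105, adjusted p = 0.0693). Both were higher in each bird, and the depots did not overlap. HOXB5 (2.07 to 2.96 against 1.35 to 1.49 FPKM) and HOXB7 (3.37 to 4.25 against 1.77 to 1.94 FPKM) did not overlap either, at differences of 0.53 ± 0.128 and 0.68 ± 0.123. HOXB9 and HOXB3 differed by 0.60 ± 0.128 and 0.42 ± 0.155, with overlap between birds.

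In the HOXA and HOXC clusters the largest differences were those of genes at the posterior end. HOXC10 was at 0.141, 0.841 and 0.652 FPKM in abdominal and 6.57, 3.18 and 1.89 FPKM in subcutaneous adipose (−1.57 ± 0.389, adjusted p = 0.21), and its difference in control geese was −1.34. HOXA11 was at 3.33, 2.26 and 1.71 FPKM against 1.05, 0.623 and 0.767 FPKM (0.90 ± 0.135, adjusted p = 0.119). HOXA13 was at 2.05, 0.226 and 3.23 FPKM against 0, 0.212 and 0 FPKM, so that T2 showed almost no difference. The most abundant HOX transcript, HOXA7, was at 31.3 to 32.1 FPKM in abdominal and 31.5 to 36.3 FPKM in subcutaneous adipose (−0.10 ± 0.101, adjusted p = 0.737).

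**Figure D2:**
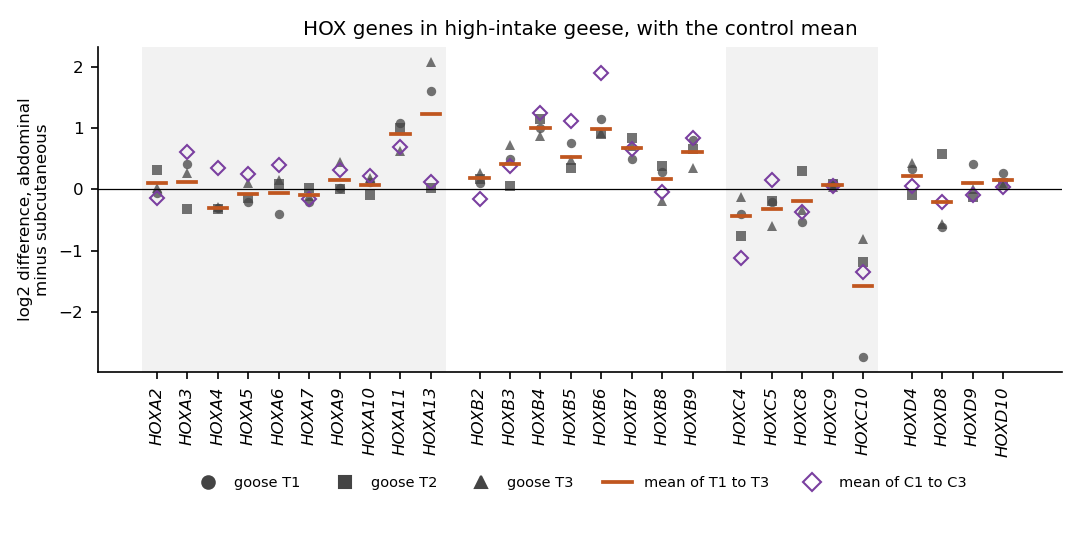
Difference of each tested HOX gene between abdominal and subcutaneous adipose, in log2(FPKM + 1), grouped by cluster A to D from left to right and by number within a cluster. Filled markers are geese T1 to T3, orange bars their mean and open diamonds the mean of control geese C1 to C3, and all 8 HOXB bars lie above 0, from 0.16 to 1.00.

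Of 43 other tested patterning factors, transcription factors that lay out body regions, 10 were higher (23.3%) and 11 lower (25.6%) in abdominal adipose at an unadjusted p under 0.05, against 8.9% and 5.18% of all mRNAs. Without T1 the counts were 5 of 40 higher and 9 lower, and after the medians were subtracted 6 and 12 of 43. In control geese 4 were higher and 14 lower, where 6.87% and 5.1% of all mRNAs were so. EMX2 and SHOX were the 2 past the adjusted threshold. GATA5, a relative of GATA6, was at 2.43, 1.58 and 3.94 FPKM in abdominal and 0.199, 0.363 and 0.303 FPKM in subcutaneous adipose (1.45 ± 0.209, adjusted p = 0.111). TBX18, a T-box factor of somites and the outer heart layer, was at 1.38, 1.96 and 0.81 FPKM against 8.57, 5.42 and 5.15 FPKM (−1.63 ± 0.201, adjusted p = 0.0825). BARX2, a homeobox factor of muscle and cartilage, was at 1.03, 4.26 and 0.612 FPKM against 6.7, 8.09 and 4.53 FPKM (−1.50 ± 0.251, adjusted p = 0.133). None of these overlapped between depots, and the control geese differed by 1.33 for GATA5, −1.41 for TBX18 and −1.12 for BARX2.

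PRRX1, of limb and connective tissue mesenchyme, was at 7.37, 4.2 and 2.64 FPKM in abdominal and 13, 10.1 and 5.94 FPKM in subcutaneous adipose (−0.92 ± 0.121, adjusted p = 0.0962), and OSR2 differed by −0.57 ± 0.15. TBX2 (0.66 ± 0.111), TCF21 (0.53 ± 0.178) and NR2F2 (0.39 ± 0.143) were higher in abdominal adipose at an unadjusted p under 0.05. MEOX2, the most abundant factor of the list at 38.8 to 44.2 FPKM in abdominal and 32.1 to 38.1 FPKM in subcutaneous adipose, differed by 0.26 ± 0.0931. PRRX2, TWIST1, TWIST2, OSR1, EN1, PITX1 and TBX3 differed by less than 0.16 in size and did not pass.

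Genes of preadipocytes and fibroblasts, the stromal cells among fat cells, were lower in abdominal adipose as a group. Of 23 tested, 19 were lower and 11 were so at an unadjusted p under 0.05 (47.8%, against 5.18% of all mRNAs), with a median difference of −0.69 (−0.64, −0.33 and −0.33 by bird). FBN1, the main protein of microfibrils, was at 83, 81.6 and 56.1 FPKM in abdominal and 266, 264 and 118 FPKM in subcutaneous adipose (−1.47 ± 0.167, adjusted p = 0.0743). GSN, an actin-severing protein and the most abundant of the list, was at 346, 343 and 319 FPKM against 652, 405 and 649 FPKM (−0.72 ± 0.206, adjusted p = 0.25). The depots did not overlap for either gene. EBF2, a factor of brown and beige preadipocytes in mice, was at 4.77, 2.54 and 3.24 FPKM against 7.99, 5.76 and 5.76 FPKM (−0.75 ± 0.12). Of the 4 members that were higher, THY1, a surface protein of fibroblasts, had an unadjusted p under 0.05 (0.47 ± 0.142). Without T1 the median was −0.42, with 8 lower. In control geese 6 genes of the list were lower and 1 higher at that level, where 5.1% and 6.87% of all mRNAs were so. In whole tissue, fewer cells of a type and less RNA per cell cannot be told apart.

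Matrix proteins and the enzymes that remodel them had 24 of 57 tested genes lower (42.1%) and 7 higher (12.3%) at an unadjusted p under 0.05. Over all mRNAs 5.18% were lower and 8.9% higher. DCN, LUM, POSTN, OGN, MFAP5 and FBN1 stand on the preadipocyte and fibroblast list as well, so the 2 lists are not separate results. The median of the matrix list was −0.28. In control geese 15 of its genes were lower and 4 higher, where 5.1% and 6.87% of all mRNAs were so. The count of higher genes was 3 of 56 without T1 and 13 of 56 without T2. COMP, a pentameric protein of cartilage and tendon, was at 1.77, 1.44 and 1.44 FPKM in abdominal and 26, 9.38 and 13.9 FPKM in subcutaneous adipose (−2.66 ± 0.245, adjusted p = 0.0604). TIMP4, an inhibitor of matrix metalloproteinases, was at 8.98, 10.7 and 13.7 FPKM against 53.6, 45.3 and 37.8 FPKM (−1.95 ± 0.214, adjusted p = 0.0712). LOXL1, which cross-links elastin, was at 4.15, 3.93 and 3.52 FPKM against 14.1, 9.65 and 10 FPKM (−1.32 ± 0.13, adjusted p = 0.0669). In all of these the subcutaneous libraries lay above the abdominal ones. The protease ADAMTS18 went the other way, at 14.9, 15.6 and 14.2 FPKM against 5.16, 8.28 and 6.91 FPKM (1.05 ± 0.141, adjusted p = 0.0975). SPARC, the most abundant matrix gene at 779 to 1226 FPKM in abdominal and 922 to 1214 FPKM in subcutaneous adipose, differed by −0.12 ± 0.179.

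Of 25 collagens, 7 were higher (28%, against 8.9% of all mRNAs) and 2 lower at an unadjusted p under 0.05, and 4 and 1 without T3. COL4A5, a chain of the basement membrane collagen type IV, was at 118, 71.2 and 29.1 FPKM in abdominal and 53.7, 28.1 and 7.71 FPKM in subcutaneous adipose (1.41 ± 0.157, adjusted p = 0.0721). COL4A1 was at 195, 286 and 212 FPKM against 97.4, 144 and 134 FPKM (0.88 ± 0.128, adjusted p = 0.111), and COL4A2 at 107, 137 and 133 FPKM against 52.6, 85.3 and 83.8 FPKM (0.78 ± 0.123, adjusted p = 0.129). All 3 chains were higher in the abdominal depot of every bird. COL6A2, the most abundant collagen here, was at 674, 613 and 593 FPKM against 923, 806 and 874 FPKM (−0.47 ± 0.158, adjusted p = 0.305), and COL12A1 differed by −1.08 ± 0.171.

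Among 53 WNT, BMP, TGF-beta and FGF signalling genes, 15 were lower (28.3%) and 7 higher (13.2%) at an unadjusted p under 0.05, against 5.18% and 8.9% of all mRNAs. WNT2 and GREM1 stand on the preadipocyte and fibroblast list as well. WNT2B passed the adjusted threshold. Without T1, 11 of 55 were lower and 2 higher, without T2 18 of 54 were lower and 13 higher, and in control geese 15 were lower and 5 higher. Of the ligands, WNT5B was at 10.7, 9.47 and 6.7 FPKM in abdominal and 27.7, 19.6 and 16.5 FPKM in subcutaneous adipose (−1.15 ± 0.111, adjusted p = 0.0645). BMP5 was at 8.15, 0.731 and 1.57 FPKM against 23.6, 15.7 and 17.7 FPKM (−2.52 ± 0.372, adjusted p = 0.113). Of the receptors, FGFR2 was highest in abdominal adipose of T2, at 1.47, 5.99 and 0.84 FPKM against 0.564, 0.32 and 0.21 FPKM (1.22 ± 0.389, adjusted p = 0.289). The depots did not overlap for any of these. FZD4, the most abundant member, was at 38 to 59.4 FPKM against 33.3 to 53.6 FPKM and differed by 0.32 ± 0.274.

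**Figure D3:**
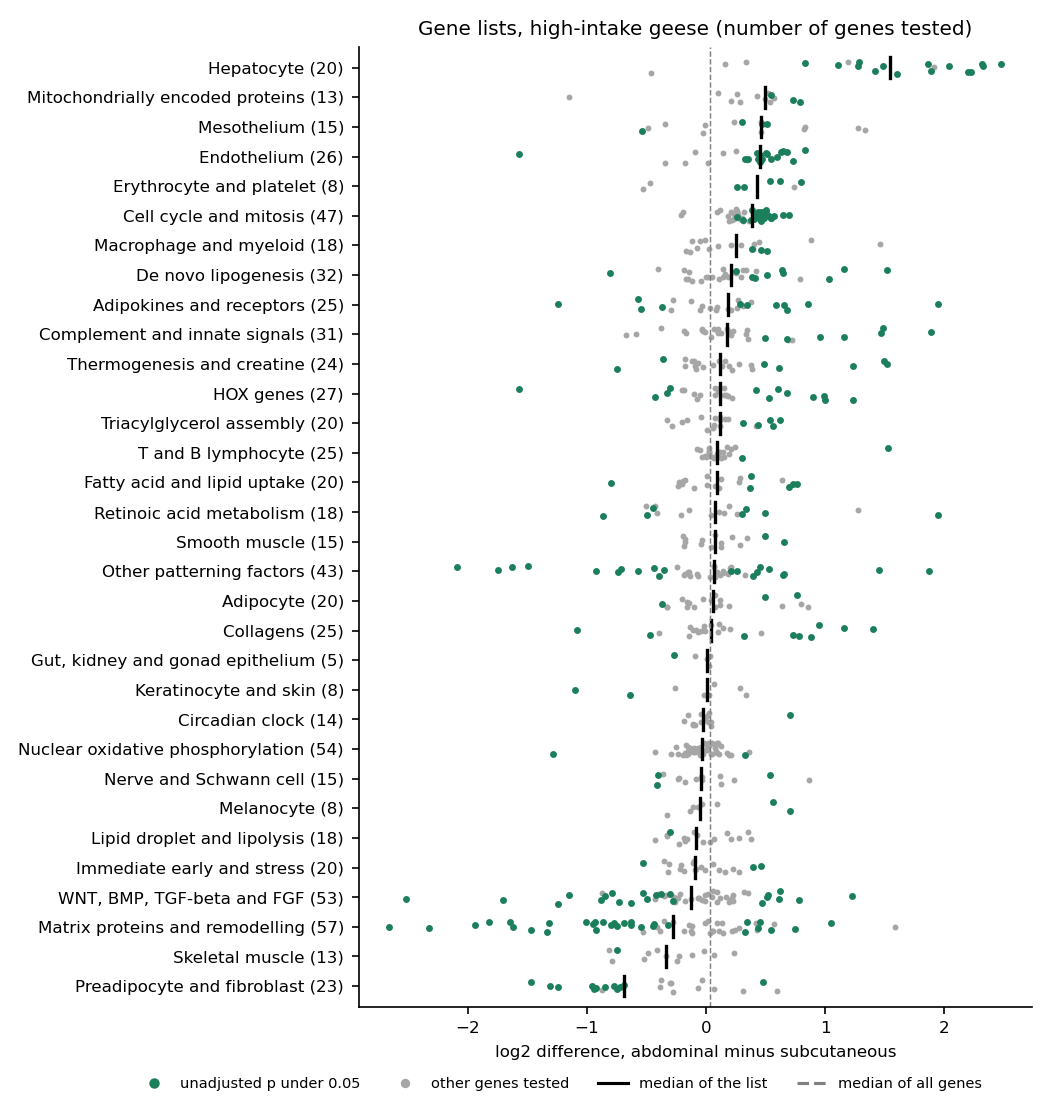
Difference between abdominal and subcutaneous adipose of every tested gene on 32 lists, in log2(FPKM + 1), with the number tested in brackets. Green points have an unadjusted p under 0.05, black bars are list medians and the dashed line is the median of all mRNAs, 0.04, so that the hepatocyte list lies highest (1.54) and the preadipocyte and fibroblast list lowest (−0.69).

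Endothelial genes were higher in abdominal adipose, 18 of 26 at an unadjusted p under 0.05 (69.2%, against 8.9% of all mRNAs) with a median of 0.45 (0.50, 0.37 and 0.34 by bird). Without T1 the count was 5 of 26 (19.2%, against 4.84% of all mRNAs). In a fit of all 12 adipose libraries it was 1 of 26 (3.85%, against 6.07% of all mRNAs). In 10 libraries without goose C2 it was 16 of 26 (61.5%, against 10.7% of all mRNAs). After the medians were subtracted it was 17 of 26 (65.4%, against 6.79% of all mRNAs). CDH5, the cadherin of endothelial junctions, was at 32.6, 51.6 and 44.3 FPKM in abdominal and 21.8, 30.2 and 28.3 FPKM in subcutaneous adipose (0.65 ± 0.0978, adjusted p = 0.121). SOX7, an endothelial transcription factor, was at 23.8, 31.5 and 39 FPKM against 14.4, 13.5 and 24.8 FPKM (0.83 ± 0.14, adjusted p = 0.133). LYVE1, a marker of lymphatic endothelium, was the single member lower at that level, at 0.986, 0.821 and 2.01 FPKM against 9.5, 3.79 and 4.68 FPKM (−1.57 ± 0.299, adjusted p = 0.154). NRP1, the most abundant of the list, was at 195 to 273 FPKM against 166 to 253 FPKM. The pericyte gene RGS5 was at 39.7, 70.6 and 67.3 FPKM against 24.9, 36.7 and 50.9 FPKM (0.66 ± 0.134, adjusted p = 0.169). In control geese 13 endothelial genes were higher and 1 lower at an unadjusted p under 0.05, where 6.87% and 5.1% of all mRNAs were so. The list's control medians were 0.14 in C1, 1.70 in C2 and 0.65 in C3, against −0.09, 0.64 and −0.06 over all mRNAs.

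Cell cycle genes were higher in abdominal adipose by a small amount, 22 of 47 at an unadjusted p under 0.05 (46.8%, against 8.9% of all mRNAs). None was lower, and the median was 0.39 (0.18, 0.53 and 0.43 by bird). Without T3, 5 of 47 were higher (10.6%, against 6.19% of all mRNAs). CDCA3, which triggers entry into mitosis, was at 7.15, 10.5 and 4.23 FPKM in abdominal and 4.44, 7.08 and 2.58 FPKM in subcutaneous adipose (0.55 ± 0.104, adjusted p = 0.154). PLK1, a mitotic kinase, was at 2.69, 3.73 and 1.98 FPKM against 1.77, 2.2 and 0.957 FPKM (0.53 ± 0.111, adjusted p = 0.175), and CCNB3, a B-type cyclin, at 2.72, 5.49 and 2.24 FPKM against 1.88, 2.41 and 0.869 FPKM (0.70 ± 0.151, adjusted p = 0.181). Each was higher in abdominal adipose of every bird, although the depots overlapped between birds. PCNA, the most abundant member, was at 204, 93.4 and 360 FPKM against 240, 111 and 387 FPKM and so was slightly lower (−0.19 ± 0.115). In control geese the list's median was −0.08, with none higher and 2 lower at an unadjusted p under 0.05. The interaction of depot and feeding had an unadjusted p of 0.0459 for CDCA3, 0.11 for PLK1 and 0.0381 for CCNB3, and none passed adjustment.

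Genes of hepatocytes, the cells that make most plasma proteins, were higher in abdominal adipose of high-intake geese. Of 20 tested, 15 were higher at an unadjusted p under 0.05 (75%, against 8.9% of all mRNAs) and none lower. The median of 1.54 varied from 0.42 in T2 to 1.40 in T1 and 2.59 in T3 and was 0.89 without T3. FGB, a fibrinogen chain, was at 78.3, 11.5 and 153 FPKM in abdominal and 17.2, 2.98 and 15.5 FPKM in subcutaneous adipose (2.33 ± 0.311, adjusted p = 0.0975). FGA was at 39, 7.76 and 70.8 FPKM against 9.83, 1.4 and 8.46 FPKM (2.23 ± 0.242, adjusted p = 0.0712), and FGG differed by 2.32 ± 0.28 (adjusted p = 0.0825). In each bird all 3 chains were higher in the abdominal depot. HPX, the haem carrier hemopexin, was at 86, 181 and 122 FPKM against 32.5, 11.7 and 25 FPKM (2.48 ± 0.469, adjusted p = 0.154). APOA1, the most abundant member, was at 599, 302 and 1779 FPKM against 646, 658 and 1986 FPKM (−0.46 ± 0.263, adjusted p = 0.51).

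ALB, serum albumin and a defining hepatocyte transcript, was at 346, 8.44 and 2285 FPKM in abdominal and 62.8, 14.8 and 138 FPKM in subcutaneous adipose. The summed hepatocyte list ran from 553 to 5012 FPKM in abdominal and from 709 to 2239 FPKM in subcutaneous adipose, none of its 5 defining markers had a mean under 1 FPKM, and T2 was lowest and T3 highest in both depots. ALB was listed at 0 in 5 of the 6 liver libraries of the series, a value at which its estimate may have failed. Without it the sums were 982, 545 and 2726 FPKM in abdominal and 755, 694 and 2102 FPKM in subcutaneous adipose, in the same order of birds. Most of each of these sums was APOA1, at 599, 302 and 1779 FPKM in abdominal and 646, 658 and 1986 FPKM in subcutaneous adipose. APOA1 was the 1 member of the 20 tested that was lower in abdominal adipose, so the sums do not describe the other members. In control geese the list had a median of 0.21, with 1 gene higher and none lower. The interaction had an unadjusted p of 0.000635 for FGB and 0.000952 for FGA, neither past adjustment.

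The order of birds in abdominal adipose was the same for RBP4, which is not on the hepatocyte list. RBP4, the plasma carrier of retinol, was at 15, 2.45 and 68.2 FPKM in abdominal and 2.34, 0.686 and 10.8 FPKM in subcutaneous adipose (1.95 ± 0.313, adjusted p = 0.13). The complement list had 7 of 31 higher (22.6%, against 8.9% of all mRNAs) and none lower at an unadjusted p under 0.05 (9 of 32 higher and 3 lower without T2). C3 and C9 stand on the hepatocyte list as well. C3, the hub of the cascade, was at 19.3, 6.78 and 39.5 FPKM against 5.38, 2.33 and 4.86 FPKM (1.89 ± 0.314, adjusted p = 0.133), and C9, of the lytic pore, at 9.34, 3.03 and 12.3 FPKM against 2.83, 0.945 and 2.4 FPKM (1.48 ± 0.2, adjusted p = 0.0975). The abdominal level was highest in T3 and lowest in T2 for each of these, whereas the subcutaneous levels of C3 and C9 were highest in T1, and the part that hepatocyte transcripts had in them was not tested.

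**Figure D4:**
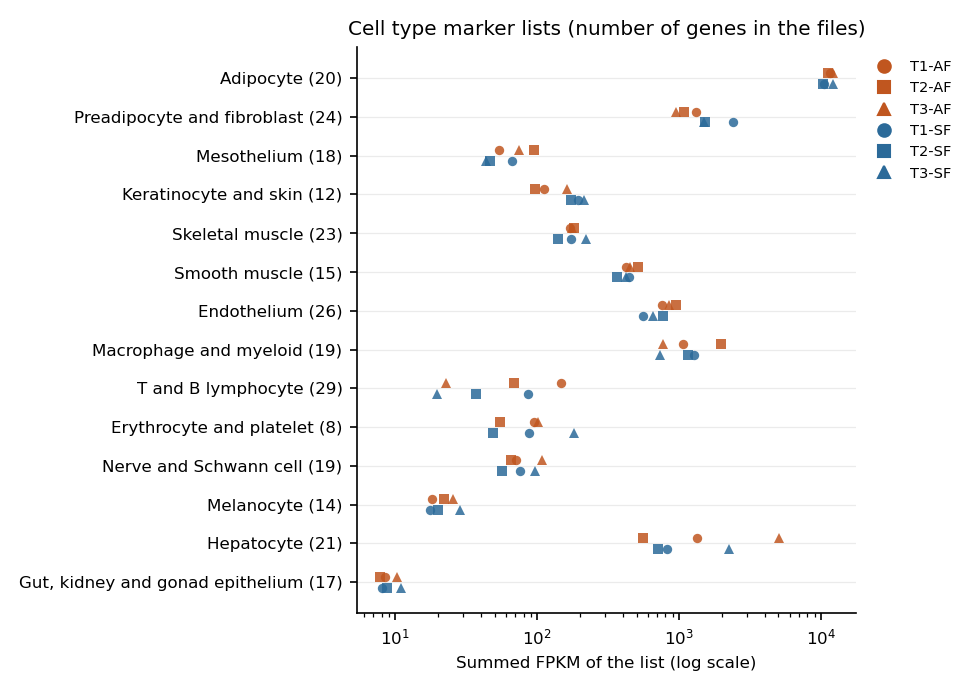
Summed FPKM of 14 cell type marker lists in the 6 high-intake adipose libraries, on a log axis, with orange for abdominal (AF), blue for subcutaneous (SF) and a marker shape for each goose. The preadipocyte sums do not overlap between depots (943 to 1309 against 1506 to 2386). The hepatocyte sums range widely within each depot and rest mostly on APOA1 and ALB.

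In de novo lipogenesis, the making of fatty acids from acetyl-CoA, 9 of 32 genes were higher (28.1%) and 1 lower at an unadjusted p under 0.05. Over all mRNAs 8.9% were higher and 5.18% lower, and the median of the list was 0.21. FASN, the fatty acid synthase, was at 191, 194 and 302 FPKM in abdominal and 126, 143 and 160 FPKM in subcutaneous adipose (0.65 ± 0.141, adjusted p = 0.182). SLC25A1, the exporter of citrate from mitochondria, was at 18.9, 23.5 and 23.3 FPKM against 11.8, 15 and 14.3 FPKM (0.64 ± 0.0922, adjusted p = 0.111). Neither gene overlapped between depots. ACSL5, an acyl-CoA synthetase, was at 10.5, 2.25 and 11.1 FPKM against 3.43, 1.69 and 3.44 FPKM (1.04 ± 0.265, adjusted p = 0.219), and ELOVL3, an elongase, at 1.13, 0.875 and 8.8 FPKM against 0.18, 0.0573 and 0.328 FPKM (1.52 ± 0.445, adjusted p = 0.261). The most abundant member, the desaturase SCD, was at 837, 513 and 957 FPKM against 1267, 759 and 992 FPKM (−0.40 ± 0.197, adjusted p = 0.446).

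Lipid uptake had 5 of 20 genes higher (25%) and 1 lower (5%) at an unadjusted p under 0.05, against 8.9% and 5.18% of all mRNAs. Without T1, 1 of 19 was higher (5.26%, against 4.84% of all mRNAs). Without T2, 7 of 20 were higher (35%) and 3 lower (15%), against 14.5% and 11.8% of all mRNAs. LPL, which frees fatty acids from lipoproteins, was at 1621, 2018 and 1194 FPKM in abdominal and 827, 1485 and 651 FPKM in subcutaneous adipose (0.76 ± 0.209, adjusted p = 0.237). VLDLR, a receptor of very low density lipoproteins, was at 10.4, 9.75 and 6.27 FPKM against 5.81, 4.3 and 4.42 FPKM (0.73 ± 0.15, adjusted p = 0.172). Both were higher in the abdominal depot of every bird. Of 20 genes of triacylglycerol assembly, 5 were higher (25%, against 8.9% of all mRNAs) and none lower at an unadjusted p under 0.05. Among them was glycerol kinase GK, at 184, 185 and 104 FPKM against 93.3, 148 and 69.9 FPKM (0.62 ± 0.158, adjusted p = 0.219). The counts were 2 higher without T1 (10%, against 4.84%) and 3 without T3 (15%, against 6.19%). Without T2, 4 of 19 were higher (21.1%) and 3 lower (15.8%), near the 14.5% and 11.8% of all mRNAs. DGAT2, which adds the last fatty acid, was at 414, 568 and 709 FPKM against 459, 554 and 515 FPKM (0.12 ± 0.182). Of 18 genes of lipid droplets and lipolysis, none was higher and 1, FITM2, was lower at that level, and the lipase PNPLA2 was at 772 to 1234 FPKM against 964 to 1773 FPKM.

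The adipokine list held differences in both directions, 7 of 25 higher (28%) and 4 lower (16%) at an unadjusted p under 0.05, against 8.9% and 5.18% of all mRNAs. The counts were 6 higher and 1 lower without T1, and 5 higher and 2 lower without T3. FSTL1, a secreted follistatin-like protein, was at 98.4, 98.9 and 63.1 FPKM in abdominal and 278, 205 and 145 FPKM in subcutaneous adipose (−1.24 ± 0.133, adjusted p = 0.0693). ANGPT1, a ligand that stabilises vessels, was at 1.91, 5.59 and 3.52 FPKM against 0.59, 2.77 and 1.45 FPKM (0.85 ± 0.106, adjusted p = 0.0825). ADIPOQ, adiponectin, was at 44.9, 47 and 63.2 FPKM against 55.4, 68 and 77.4 FPKM (−0.37 ± 0.106, adjusted p = 0.25), and its receptor ADIPOR2 at 556, 256 and 543 FPKM against 635, 491 and 780 FPKM (−0.55 ± 0.196, adjusted p = 0.324). Both were lower in the abdominal depot of each bird. RXRG, a retinoid receptor on the retinoic acid metabolism list and not on this one, was at 1.45, 2.55 and 3.06 FPKM against 3.95, 4.92 and 6.32 FPKM (−0.87 ± 0.118, adjusted p = 0.0993).

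The 13 proteins encoded by mitochondrial DNA had a median difference of 0.50, with 3 higher (23.1%, against 8.9% of all mRNAs) and none lower at an unadjusted p under 0.05. The median was 0.67 in T1 and 0.95 in T3 but −0.58 in T2. Without T2 the count was 12 higher (92.3%, against 14.5% of all mRNAs) and none lower, with a median of 0.81. The median was 0.31 without T1 and 0.24 without T3. COX2, the most abundant, was at 1617, 1105 and 1397 FPKM in abdominal and 882, 1121 and 827 FPKM in subcutaneous adipose. Of 54 nuclear genes of oxidative phosphorylation 1 was higher and 1 lower (1.85% each, against 8.9% and 5.18% of all mRNAs). Their medians were −0.08, 0.23 and −0.23 by bird. Without T2 the counts were 2 higher (3.7%) and 19 lower (35.2%), against 14.5% and 11.8% of all mRNAs. T2 thus lay opposite to the other birds in both lists. Of the thermogenesis and creatine list, 5 of 24 were higher (20.8%) and 2 lower (8.33%) at that level, GAMT and EBF2 among them. Over all mRNAs 8.9% were higher and 5.18% lower. Without T2, 9 were higher (37.5%) and 3 lower (12.5%), against 14.5% and 11.8% of all mRNAs. CIDEA, the most abundant member of that list, was at 355 to 695 FPKM against 384 to 711 FPKM.

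Lists of other cell types were read against the same shares, 8.9% of all mRNAs higher and 5.18% lower, and many of their defining markers were not matched in the tables. Counts without a bird stand against the shares of that fit. These were 4.84% higher and 2.48% lower without T1, 14.5% and 11.8% without T2, and 6.19% and 3.1% without T3. Of the defining markers 6 of 11 were matched for mesothelium, 4 of 9 for keratinocytes, 5 of 8 for skeletal muscle, 1 of 5 for erythrocytes and 2 of 4 for melanocytes. The mesothelial list, for the lining of the body cavity, had 3 of 15 higher and 1 lower at an unadjusted p under 0.05, with sums of 53.7 to 94.5 FPKM in abdominal and 43.2 to 66.3 FPKM in subcutaneous adipose. Its median difference was 0.46, but 0.14 without T2, where 3 of 12 were higher and 2 lower. WT1, a mesothelial factor, was at 1.08, 0.584 and 1.19 FPKM against 0.421, 0.403 and 0.26 FPKM (0.51 ± 0.146, adjusted p = 0.252). LRRN4, another mesothelial marker, went the other way in every bird, at 1.5, 2.01 and 1.91 FPKM against 1.56, 4.75 and 3.13 FPKM (−0.49 ± 0.196, adjusted p = 0.371). UPK1B and MSLN were at 15 and 4.55 FPKM in the abdominal library of T2 and under 0.1 FPKM in the other 5 libraries, and CALB2 and BNC1 had means under 0.1 FPKM. The keratinocyte list had 2 of 8 lower and none higher, with sums of 96.5 to 161 against 172 to 214 FPKM. Its sum was mostly PPL, periplakin, at 101, 76.3 and 152 FPKM against 154, 154 and 188 FPKM (−0.64 ± 0.165, adjusted p = 0.221), while TP63, EVPL and GRHL3 had means under 1 FPKM.

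Skeletal muscle genes summed to 169 to 182 FPKM in abdominal and 140 to 219 FPKM in subcutaneous adipose, with 1 of 13 lower. Of the 23 genes in the sum, 21 were under 1 FPKM. The defining marker ACTA1 was at 2.1 to 3.21 FPKM in abdominal and 3.55 to 9.07 FPKM in subcutaneous adipose. The sum thus came mostly from another member and is not a measure of muscle. MYL1 and MB were at 4.46 and 4.55 FPKM in the subcutaneous library of T3 and under 0.2 FPKM elsewhere. Macrophage genes had 3 of 18 higher and none lower, and 4 higher and 3 lower without T2. Lymphocyte genes had 2 of 25 higher and none lower, a share near that of all mRNAs. JCHAIN, the joining chain of secreted antibodies, was at 99.7, 19 and 3.84 FPKM in abdominal and 29.2, 4.17 and 1.61 FPKM in subcutaneous adipose (1.53 ± 0.227, adjusted p = 0.117), higher in every bird but with a wide range between birds. Erythrocyte and platelet genes had 5 of 8 higher, but 1 higher and 1 lower without T1 and 3 higher without T3. Their sums overlapped, at 54.7 to 101 FPKM in abdominal and 48.9 to 180 FPKM in subcutaneous adipose. SLC4A1, the matched defining marker of erythrocytes, was at 6.39, 3.43 and 18.1 FPKM against 1.94, 4.13 and 7.95 FPKM, so that T2 went the other way. Smooth muscle genes had 2 of 15 higher and melanocyte genes 2 of 8 higher. TYR and TYRP1, the matched defining markers of melanocytes, had means under 0.1 FPKM. Nerve and Schwann cell genes had 1 of 15 higher and 2 lower, and the gut, kidney and gonad list 1 of 5 lower. Immediate early and stress genes had 2 of 20 higher and 1 lower, and 4 and 6 without T2. Retinoic acid metabolism had 4 of 18 higher and 3 lower. Its counts were 1 and 1 without T1, 5 and 6 without T2, and 2 and 1 without T3. The adipocyte list had 2 of 20 higher and 1 lower, and 4 and 4 without T2, and the circadian clock list had 1 of 14 higher, the repressor BHLHE41. The part of these cell types in the other results was not tested.

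The control geese gave an independent set of birds for the same comparison. Among the high-intake genes whose depots did not overlap and differed by at least 1, 66 of the higher and 78 of the lower genes were also tested in control geese. Of these, 59 (89.4%) and 76 (97.4%) had the same sign there, and 45 (68.2%) and 62 (79.5%) had it in all 3 control birds. Over all 12225 genes tested in both groups the shares were 67.8% and 25.5%. Apart from DIAPH2 and ITGA6, the 5 genes past the threshold had the same sign in every control bird, and EMX2, SHOX, DACT2 and WNT2B passed the adjusted threshold there. The control differences of DIAPH2 and ITGA6 each rest on 1 library listed at 0. In control geese 386 of 13444 mRNAs (2.87%) passed, 201 higher (1.5%) and 185 lower (1.38%). Without C2, 680 passed, 192 higher and 488 lower. The control and high-intake mRNA fits do not weigh a gene's own spread alike, so their p-values and counts are not on 1 scale. SHOX differed by −1.72 ± 0.219 in control geese, with an unadjusted limma p of 4.06e-15. In high-intake geese SHOX differed by −1.75 ± 0.106, with an unadjusted limma p of 1.72e-05. The control p-values rest almost wholly on the spread of all genes. The subcutaneous library of C2 stands apart from the other adipose libraries. Its mRNA FPKM summed to 107522, and 95.5% of mRNAs reached 0.1 FPKM. The median control difference over all mRNAs was −0.09 in C1, 0.64 in C2 and −0.06 in C3.

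**Figure D5:**
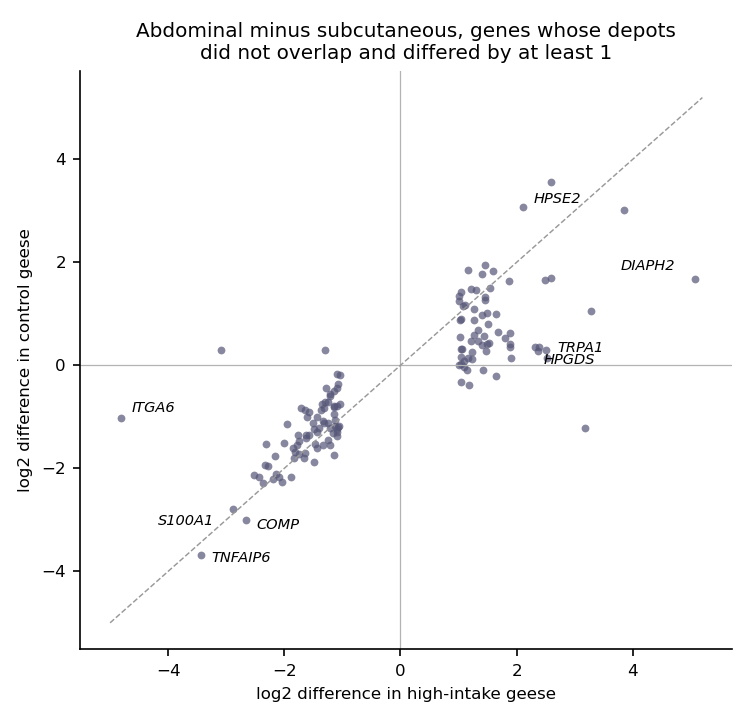
Difference between abdominal and subcutaneous adipose in control geese (vertical) against high-intake geese (horizontal), in log2(FPKM + 1), for the 145 genes whose high-intake libraries did not overlap and differed by at least 1. The dashed line marks equal differences. Points such as TNFAIP6 (−3.44 and −3.69) and COMP (−2.66 and −3.01) lie near it, whereas TRPA1 (2.52 and 0.15) and HPGDS (2.33 and 0.35) lie near 0 on the control axis.

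A test of the difference between the feeding groups, the interaction of depot and feeding over 12926 mRNAs, passed for 5 genes (0.0387%), and 625 (4.84%) had an unadjusted p under 0.05. None of the 5 passed without goose C2 or after the medians were subtracted. HPGDS (2.33 in high-intake and 0.35 in control geese) had an unadjusted p of 4.51e-05 and did not pass adjustment, and WNT2B (−1.71 and −0.84) had one of 0.00216.

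Long noncoding RNAs, transcripts without a protein product, did not separate the depots at this size of sample. Of 953 tested, 0 passed in the limma fit or in any alternative run, and 72 (7.56%) had an unadjusted p under 0.05, 35 higher (3.67%) and 37 lower (3.88%). The libraries did not overlap for 74 (7.76%), and 2 of those (0.21%) differed by at least 1. XLOC_052706, which lies 3281 bases from PTP4A1, was at 9.75, 6.46 and 10.6 FPKM in abdominal and 5.63, 3.34 and 2.66 FPKM in subcutaneous adipose (1.05 ± 0.266, adjusted p = 0.432). It was higher in every bird, and in control geese its difference of 2.32 passed adjustment (adjusted p = 0.0134). XLOC_053146, which lies 5957 bases from TINAG, was listed at 0 in the abdominal libraries and at 0.292, 0.28 and 4.15 FPKM in subcutaneous adipose. The bird accounted for a share of 0.632 of the lncRNA sum of squares and the depot for 0.131. In control geese 4 of 1436 lncRNAs passed (0.279%).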

How the data were processed

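Total RNA was depleted of ribosomal RNA with the Ribo-Zero kit and sequenced in paired ends on an Illumina instrument. The submitters' processing notes name CASAVA 1.8.2, Bowtie2 2.11, TopHat2 2.12, Cufflinks 2.1.1 and Cuffdiff, and the reads were mapped to AnsCyg_PRJNA183603_v1.0. The deposited tables, made by the authors for mRNAs and lncRNAs, hold FPKM values read here as log2(FPKM + 1), since the log scale is not named in the sources used here. They were turned back to FPKM for the levels. All columns of per-sample values belong to the series.

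Genes with a mean above 0.1 FPKM over the 6 libraries were fitted on log2(FPKM + 1) with limma 3.58.1 in R 4.3.3 (empirical Bayes with a trend, pseudocount 1), with the goose as a block, for mRNAs and lncRNAs separately. The authors compared tissues with Cuffdiff, which has no block. The goose pairs the samples because both depots came from 1 bird, and deviations from the depot means correlated within T1, T2 and T3 at 0.49, 0.42 and 0.54. The birds are separate animals. Control geese were fitted likewise, and the interaction over 12 adipose libraries. The high-intake fits were also run on simulated data with independent normal noise and planted changes. Those data lack the correlated noise of real genes, so no support for the calls is drawn from them.

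Named genes were, in each direction, up to 10 past the adjusted p of 0.05 and then by smallest p (same sign in 3 birds, no overlap, a difference of at least 1, mean above 1 FPKM), the HOX and patterning factors above 1 FPKM, and each list's most abundant member. Up to 3 members of each list with the smallest p, those at the ends of its range, the 8 differences of largest size in each direction, the markers given for single libraries and the genes of the interaction were chosen after their values were seen. The comparison and the 32 gene lists (1049 genes, 823 found, 53 of them through RefSeq names of the assembly Taihu_goose_T2T_genome) were chosen with earlier results of these data known. Alternatives were another pseudocount, other filters, median centring, no block, no trend, a robust fit, 12 or 10 libraries in 1 fit, and leaving out each bird. A fit without genes listed at 0 and the list counts by setting were added after seeing the data. Without counts, no interval for counting error can be given.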

Additional observations from a re-analysis of the deposited data

Results flagged for a closer look

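The depot difference was larger or smaller in high-intake than in control geese for 5 mRNAs by a test of that difference (interaction of depot and feeding, limma, adjusted p under 0.05), given as the high-intake difference minus the control difference. All 5 calls were lost without goose C2, and likewise after the medians were subtracted. The interaction was 2.37 for TRPA1 (adjusted p = 0.000381). It was 2.20 for LOC106033238, annotated as a medium chain fatty acyl-CoA hydrolase precursor, which was at 5.61, 6.19 and 20.2 FPKM in abdominal and 0.603, 0.145 and 2.03 FPKM in subcutaneous adipose (adjusted p = 0.00886). It was 1.52 for TPD52L1, at 4.92, 2.43 and 1.64 FPKM against 0.428, 0.46 and 0.337 FPKM, with control libraries of 0.165 to 0.612 FPKM (adjusted p = 0.0384).

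The last 2 rest on values listed at 0. The difference was 1.57 for GPR61, at 1.66, 1.25 and 0.968 FPKM in abdominal adipose and listed at 0 in all high-intake subcutaneous libraries and in 4 of the 6 control adipose libraries (adjusted p = 0.0384). It was −7.86 for SUN1, which was listed at 0 in the abdominal library of T1 and in all 3 control subcutaneous libraries and was at 29 to 69.8 FPKM in the other high-intake libraries (adjusted p = 0.000924).

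THY1 and MCM10 were flagged because every high-intake bird was higher in abdominal adipose and every control bird lower. The difference between the groups was 0.90 for THY1 and 0.33 for MCM10, and neither passed a test over all genes. The share of all genes with this pattern is not given, so these 2 are not shown to be unusual.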

How the results depend on the processing

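The count of 7 mRNAs became 63 with a pseudocount of 0.1, 46 with a mean above 1 FPKM, 1 with no filter, 11 with centred medians, 11 with a robust fit, 242 with 12 adipose libraries in 1 fit, 84 with 10 libraries (without goose C2) and 19 without genes listed at 0 in a library, and 9 to 243 when a bird was left out. It was 6 with no replicate block and 7 with no trend. The lncRNA count was 0 throughout. The control count of 386 became 1802 when centred, 238 above 1 FPKM, 37 with no block and 36 to 680 without a bird. The interaction count of 5 became 0 when centred, 117 above 1 FPKM, 1 with no filter, 1 with no block, 8 with a pseudocount of 0.1 and 0 to 174 without a bird. The causes were not tested. SHOX, WNT2B and LOC106049116 kept an adjusted p under 0.05 in 11 of 13 alternatives, EMX2 and DACT2 in 12 of 13, and DIAPH2 and ITGA6 in 11 of 12. Over all named genes and alternatives, signs turned only when a bird was left out, with these lowest and highest differences: C1QB (−0.62 to 0.15), CD74 (−0.63 to 0.29), CIDEA (−0.074 to 0.025), DGAT2 (−0.055 to 0.25), EN1 (−0.61 to 0.38), HOXA3 (−0.026 to 0.34), HOXA6 (−0.16 to 0.12), HOXD8 (−0.59 to 0.0021), HOXD9 (−0.052 to 0.21), HSP90AA1 (−0.35 to 0.0204), NRP1 (−0.024 to 0.40), PITX1 (−0.072 to 0.31), PNPLA2 (−0.65 to 0.11), TBX3 (−0.14 to 0.35), THBS1 (−0.86 to 0.0092), TPM2 (−0.032 to 0.45), TPM3 (−0.089 to 0.18) and TWIST1 (−0.22 to 0.0703). Only 3 birds and FPKM without counts limit the precision, and a difference that missed the threshold is not shown to be absent.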

Other observations

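The abdominal library of T2 held transcripts of high abundance that the other 5 libraries lacked or held at lower level. CBLIF, annotated as gastric intrinsic factor-like, was at 0.814, 209 and 12.1 FPKM in abdominal adipose of T1, T2 and T3 and at 0.103, 0 and 0.495 FPKM in subcutaneous adipose. LOC106032431, annotated as pulmonary surfactant-associated protein A1-like, was at 0.628, 252 and 0.688 FPKM against 0.577, 0.305 and 0.534 FPKM. LOC106049357, annotated as a soluble scavenger receptor SSC5D-like protein, was at 133, 410 and 209 FPKM against 37, 7.16 and 39.7 FPKM. TF, transferrin, was at 1633 FPKM in that library and at 214 to 346 FPKM in the others. PIGR, which carries antibodies across epithelia, was at 4.29, 18 and 6.77 FPKM against 0.56, 0.0695 and 1.12 FPKM. T2 had the highest abdominal value for each of these, and none passed an adjusted p of 0.05 in the limma fit. The correlation of the abdominal libraries of T2 and T3 (0.93) was the lowest among the 6 libraries, whereas the 2 depots of a bird correlated at 0.96 to 0.98.

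CD74, the invariant chain of antigen presentation, and C1QB, a complement recognition subunit, were also highest in the abdominal library of T2, at 954 and 212 FPKM, against 215 to 701 and 17.5 to 126 FPKM in the other 5 libraries.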
